A study of Mus musculus with 10 samples.

Results

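The genes described here are 33 genes of cell proliferation and DNA replication, measured in the dentate gyrus of mice in which a virus delivered the transcription factor Sox11. They were taken by name from a list of replication and mitosis genes, and each of the 33 matched an identifier among the 48526 in the deposited table. Of these, 19 act in DNA replication and its nucleotide supply or at the start of S phase, and 14 act in mitosis. In the Sox11 group, 5 mice had been injected in the dentate gyrus, on each side of the brain, with Sox11 in an adeno-associated virus of serotype 9. In the GFP group, 5 mice had received the same serotype carrying green fluorescent protein. All 10 were C57Bl/6 mice of 8 weeks, with no other allele or agent named in the labels, so the GFP mice share the injection and the viral serotype. The viral promoter, the cells reached and the time from injection to dissection were not given in the sources used here. Poly(A)-selected libraries of the microdissected gyrus were sequenced, and the question here is how genes of cell division stand when Sox11 is delivered in place of GFP.

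Before a cell copies its genome, the origin recognition complex and Cdc6 load rings of Mcm2 to Mcm7 on DNA, and these rings become the replicative helicase when Cdc45 and the GINS complex join them. Cyclin E with Cdk2 starts S phase, polymerases then copy the strands with the sliding clamp Pcna, and cyclin B with Cdk1 later drives mitosis. In the adult dentate gyrus a small population of progenitor cells in the subgranular zone keeps dividing, whereas granule neurons have left the cell cycle. Some replication factors also act in DNA repair and can be transcribed in cells that do not divide.

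Libraries are named by the numbers in the deposited table, Sox11 1, 2, 3, 6 and 7 and GFP 1, 3, 4, 5 and 6. The depth was 45100154 (Sox11 6) to 68769808 (Sox11 3) reads in genes. The Sox11 transcript lay between 9803 and 20434 normalized counts in Sox11 libraries, against 1364 to 1634 in GFP libraries, a log2 fold change of 3.08 (exact permutation test, two-sided, p = 0.00794, which is the smallest possible with 5 against 5 libraries). A normalized count is a read count divided by a factor for its library. Mature granule neuron markers were present in every library, led by Prox1, and their summed level was 75520 to 106013 normalized counts in Sox11 libraries and 72710 to 102838 in GFP libraries. GFP 3 stood apart with summed choroid plexus and ependyma markers of 377668 normalized counts, mostly Ttr, against 923 to 3237 in Sox11 libraries and a lowest value of 1789 and a median of 2573 over the GFP libraries. Values without it are given where they changed the call of any of the 33 genes. Nothing in the labels says which column belongs to which mouse, so libraries were assigned to groups only, and the spread between them is taken as that between mice.

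Most of the 33 genes did not pass the test. Mcm7, a subunit of the replicative helicase, rose, and Ccne2, Gins2 and Cenpa, which encode cyclin E2, a GINS subunit and the centromeric histone H3 variant, fell. The other 29 genes, including the proliferation marker Mki67, did not pass in either direction. The test was limma on log2(normalized count + 1), with p-values adjusted over the 17007 genes tested, a threshold of 0.05 and log2 fold changes given as Sox11 minus GFP. All 33 genes passed the filter, which asks for 10 or more normalized counts on average over all libraries, and each also averaged at least 10 in either group alone. Their means over all libraries ran from 15.9 to 2344 normalized counts. The count of 1 higher gene of 33 stands beside 9.65% of all tested genes, and the count of 3 lower genes stands beside 9.36%. In all, 12.1% of the 33 genes were called, against 19.0% of all genes tested. The median log2 fold change was -0.04 over the 33 genes and -0.01 over all tested genes. Groups did not overlap for 5 of the 33 genes, beside 15.9% of all tested genes. Of these, Mcm7 and Mcm3 had every Sox11 library above every GFP library, beside 8.63% of all tested genes, and the 3 genes that fell had every Sox11 library below, beside 7.29%.

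Precision differed among the genes. The standard error of the log2 fold change ran from 0.05 for Pcna to 0.30 for Aurkb, and 30 of the 33 fold changes were within 0.5 of 0 on the log2 scale. The spread between libraries of a group was more than 1.5 times what read counting alone gives for 17 of the genes. The median standard error was 0.14 over the 33 genes and 0.19 over the 14 mitosis genes, against 0.09 over all tested genes. Shares called therefore stand at unlike precision. The median absolute log2 fold change was 0.17 over the 33 genes and 0.15 over all tested genes. In simulated counts of the same depth, with changed genes drawn from all tested genes, the test recovered 62% of genes changed 1.5-fold and 78.7% of those changed 2-fold. Changes of these sizes can thus go uncalled, and recovery at the precision of the 33 genes was not simulated. In bulk tissue, fewer cells of a type and less RNA per cell cannot be told apart.

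**Figure D1:**
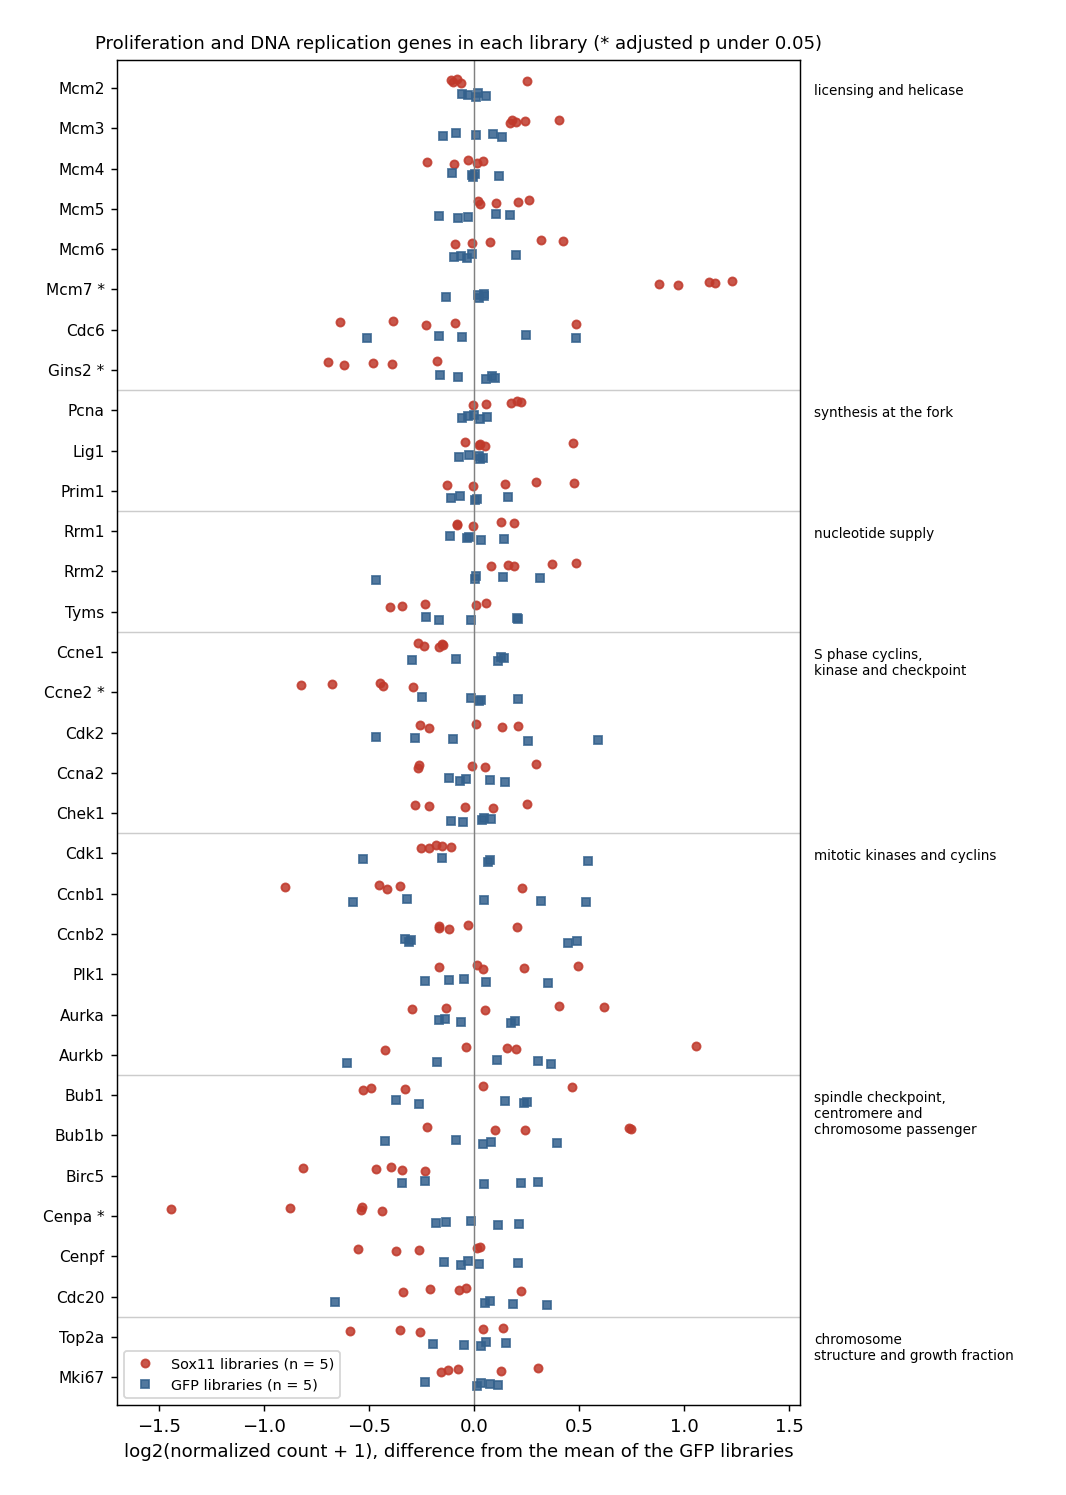
Each library's value for the 33 genes as the difference from the mean of the GFP libraries on the log2(normalized count + 1) scale, with Sox11 libraries as circles and GFP libraries as squares, grouped by role. Mcm7 is the only gene whose 5 Sox11 libraries all stand far to the right of the GFP libraries, and asterisks mark the 4 genes past the threshold.

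Sequences of Mcm7 and Cenpa are shown first, since these 2 genes had the largest rise and the largest fall of the 33. The windows run from 250 bases before to 50 bases after the annotated start, in the direction of transcription, and come from RefSeq on GRCm38.p6. The Mcm7 window is chr5:138171834-138172133 on the minus strand, and the Cenpa window is chr5:30666636-30666935 on the plus strand. Capitals mark matches, on either strand, to the letters searched.
Mcm7: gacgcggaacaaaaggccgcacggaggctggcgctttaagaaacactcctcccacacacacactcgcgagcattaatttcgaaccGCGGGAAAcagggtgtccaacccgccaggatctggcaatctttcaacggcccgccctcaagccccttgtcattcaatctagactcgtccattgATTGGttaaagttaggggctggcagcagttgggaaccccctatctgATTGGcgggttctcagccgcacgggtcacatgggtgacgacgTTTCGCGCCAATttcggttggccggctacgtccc
Cenpa: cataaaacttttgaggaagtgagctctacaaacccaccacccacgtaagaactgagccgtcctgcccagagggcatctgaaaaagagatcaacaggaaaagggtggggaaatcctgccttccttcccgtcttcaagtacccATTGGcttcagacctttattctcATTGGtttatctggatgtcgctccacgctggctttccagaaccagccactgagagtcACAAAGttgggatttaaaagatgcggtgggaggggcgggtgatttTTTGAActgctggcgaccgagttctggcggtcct
The E2F letters were TTTCCCGC, TTTCGCGC, TTTGCCGC and TTTGGCGC. The letters of the cell cycle homology region (CHR) were TTTGAA, those of the CCAAT box were CCAAT, and the SOX letters were ACAAAG and AACAAT. The Mcm7 window held 2 E2F matches and 3 CCAAT matches. Its second E2F match overlaps a CCAAT match, so those capitals run together. The Cenpa window held 2 CCAAT matches, 1 CHR match and 1 SOX match. A second RefSeq window of Mcm7, not printed, held 1 CCAAT match and 1 SOX match.

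RefSeq gave 31 windows for 28 of the 33 genes. Mcm4, Gins2, Aurkb, Ccna2 and Ccne2 had none in the table. E2F letters were found in 8 of the 31 windows (25.8%), against 2.26% of all 32851 windows, and the genes were Mcm3, Mcm5, Mcm6, Mcm7, Lig1, Cdk1, Cdk2 and Cdc6. Of these 8 genes Mcm7 alone passed the test. CHR letters were in 11 of 31 windows (35.5%), against 17.9% of all, CCAAT in 23 (74.2%), against 37.4%, and SOX letters in 7 (22.6%), against 27.0%. These matches describe the letters in the windows and do not show binding.

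Mcm7 (ENSMUSG00000029730, chromosome 5, 138164583 to 138172422, minus strand, GRCm38) rose about 2.1-fold. It had 1072, 1005, 1209, 1187 and 1279 normalized counts in Sox11 1, 2, 3, 6 and 7, against 555, 496, 564, 552 and 564 in GFP 1, 3, 4, 5 and 6. Every Sox11 library was far above every GFP library, and the lowest Sox11 value was well over the highest GFP value. The means were 1150.3 ± 110.3 in the Sox11 group and 546 ± 28.4 in the GFP group (SD, n = 5 each). The log2 fold change was 1.07 (SE 0.07, limma adjusted p = 9.18e-06), and the adjusted p lay between 1.31e-05 and 7.44e-05 when any library was left out. In Mcm7, 73.2% of 31-base words occur in no other gene's transcripts, while 24.4% also occur in the processed pseudogene Gm5487, and the authors' handling of reads that map to several places was not given in the sources used here.

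Mcm2, Mcm3, Mcm4, Mcm5 and Mcm6, the other 5 subunits of the hexamer, did not pass the test. Mcm3 had 255, 260.1, 268, 299.5 and 256 normalized counts in the Sox11 libraries, against 248, 204, 228, 241 and 213 in the GFP libraries. Its groups did not overlap, but only narrowly, and its log2 fold change of 0.24 (SE 0.09) had a limma adjusted p of 0.0739. Fold changes of the remaining subunits were 0.14 (SE 0.10) for Mcm6, 0.12 (SE 0.09) for Mcm5, -0.02 (SE 0.08) for Mcm2 and -0.06 (SE 0.06) for Mcm4, with overlapping groups in each. Per kilobase of exon, Mcm7 averaged 259.9 normalized counts in the Sox11 group and 123 in the GFP group. By the same measure Mcm4 averaged 209 in the Sox11 group and 217 in the GFP group, and Mcm6 averaged 529 in the Sox11 group and 476 in the GFP group. In GFP libraries the level of Mcm7 per kilobase was thus below that of Mcm4, and in Sox11 libraries it was above it. Mcm5, Mcm3 and Mcm2 were lower, at 77.6, 71.3 and 45.3 normalized counts per kilobase in the Sox11 group and 71.3, 60.4 and 45.8 in the GFP group. The exon length used counts the exons of all annotated transcripts of a gene, retained-intron forms of Mcm7 included. Comparisons per kilobase between genes therefore depend on the annotation.

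**Figure D2:**
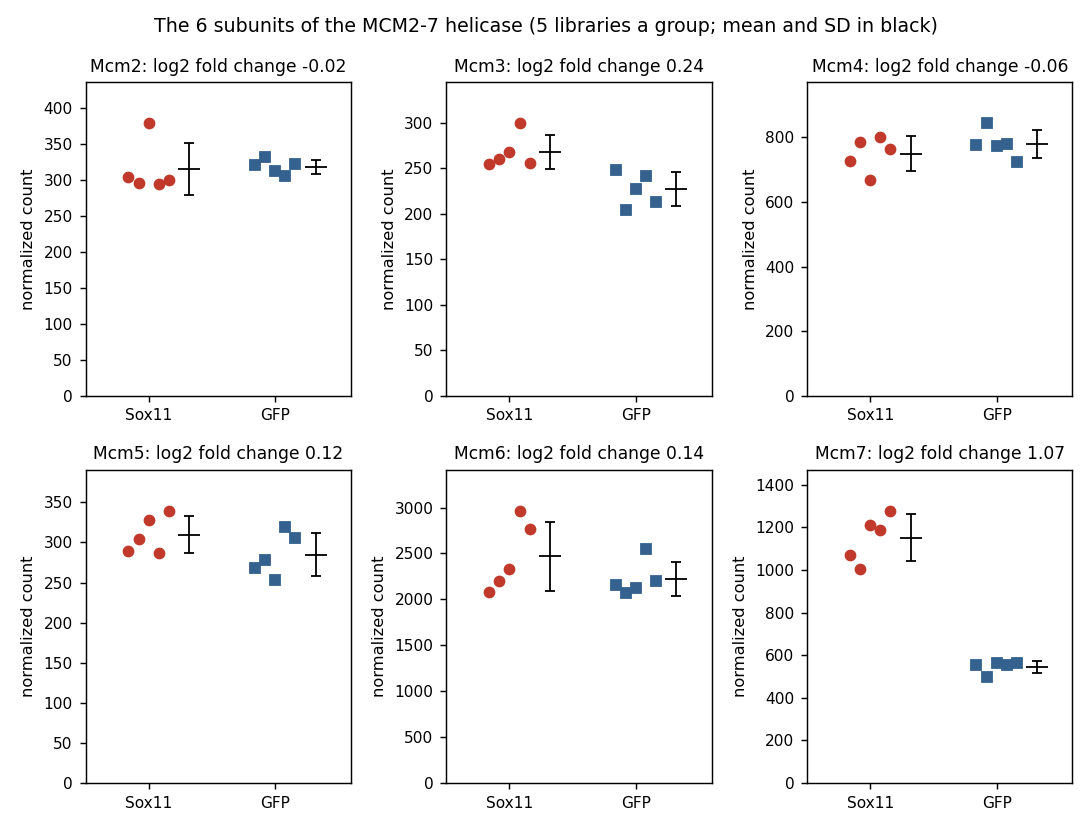
Normalized counts (linear axes from 0, 1 panel per gene) of the 6 subunits of the Mcm2 to Mcm7 hexamer in each library, Sox11 libraries as circles left of GFP libraries as squares, with the mean and SD of each group in black. Mcm7 stands at a mean of 1150.3 in the Sox11 group and 546 in the GFP group, while the groups of Mcm2, Mcm4, Mcm5 and Mcm6 overlap and those of Mcm3 lie close together.

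Of the loading and activating factors among the 33 genes, Gins2 fell and Cdc6 did not pass. Gins2 (ENSMUSG00000031821, chromosome 8, 120578633 to 120589304, minus strand), a subunit of the GINS complex, had 74.4, 87.4, 82.1, 70.6 and 102 normalized counts in the Sox11 libraries, against 119.8, 123, 109, 122 and 103 in the GFP libraries. It fell by 0.47 on the log2 scale (SE 0.12, limma adjusted p = 0.0204), with the highest Sox11 library just under the lowest GFP library. Without Sox11 1 its adjusted p was 0.0511, above the threshold. In Gins2, 67.3% of the exonic bases are also covered by genes on the opposite strand, Gse1 among them. Gse1 averaged 6973 ± 699 normalized counts in Sox11 libraries and 8185 ± 1130.2 in GFP libraries (log2 fold change -0.23, SE 0.09, limma adjusted p = 0.119). The library kit marks strand, but the strand setting of the counting was not given in the sources used here, so the part of Gse1 in the count of Gins2 was not tested. Cdc6, which helps to load the hexamer, averaged 23.1 ± 7.62 normalized counts in the Sox11 group and 26.0 ± 7.10 in the GFP group, with a log2 fold change of -0.17 (SE 0.26).

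Genes of synthesis at the fork had small positive fold changes, and none of the 3 passed. Pcna, the sliding clamp, had 1504, 1567, 1702, 1761 and 1737 normalized counts in the Sox11 libraries, against 1536, 1448, 1575, 1479 and 1508 in the GFP libraries. Only Sox11 1 and Sox11 2 lay within the range of the GFP libraries, and the log2 fold change was 0.13 (SE 0.05, limma adjusted p = 0.115). Prim1, the catalytic subunit of primase, had 260.5, 239, 289.8, 364 and 321 normalized counts in the Sox11 libraries, against 262, 264, 242, 293 and 249 in the GFP libraries. Its fold change was 0.16 (SE 0.12), the 2 highest libraries being Sox11 6 and Sox11 7. Lig1, which joins Okazaki fragments, was at a log2 fold change of 0.11 (SE 0.10), with its highest value, 472 normalized counts, in Sox11 6. Of the 33 genes, Pcna was the most abundant per kilobase, at 689 normalized counts in the Sox11 group and 629 in the GFP group. For Pcna, 76.7% of 31-base words occur in no other gene's transcripts.

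Enzymes of nucleotide supply showed no call. Rrm1 and Rrm2 encode the large and the small subunit of ribonucleotide reductase, and Tyms encodes thymidylate synthase. Rrm2 had 118, 109, 116, 134 and 145 normalized counts in the Sox11 libraries, against 74.4, 104, 129, 114 and 104 in the GFP libraries, a log2 fold change of 0.26 (SE 0.15). The groups overlapped, with GFP 4 higher than 3 of the Sox11 libraries. Tyms had 111, 115, 148, 124 and 152 normalized counts in the Sox11 libraries, against 130.5, 145, 169, 169 and 125 in the GFP libraries, a log2 fold change of -0.18 (SE 0.13). Rrm1 averaged 1200.5 ± 105 normalized counts in the Sox11 group and 1174 ± 77.9 in the GFP group.

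Cyclin E2 fell, while its partner kinase did not pass the test. Ccne2 (ENSMUSG00000028212, chromosome 4, 11191351 to 11204779, plus strand) had 159, 144, 109.5, 122 and 143 normalized counts in the Sox11 libraries, against 198, 199, 225, 193 and 164 in the GFP libraries. All Sox11 libraries were below all GFP libraries, and the log2 fold change was -0.54 (SE 0.12, limma adjusted p = 0.0120). The opposite-strand gene Ints8, which encodes a subunit of the Integrator complex, covers part of the 17.4% of exonic bases of Ccne2 shared with that strand. Ints8 also fell, to 1479 ± 95.0 normalized counts in the Sox11 group, against 1780.0 ± 85.6 in the GFP group (log2 fold change -0.27, SE 0.05, limma adjusted p = 0.00595), and its part in the count of Ccne2 was not tested.

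Ccne1, the other cyclin E gene, had 794, 755, 802, 801 and 739.8 normalized counts in the Sox11 libraries, against 964, 724, 838, 984 and 973 in the GFP libraries. Its libraries overlapped only through GFP 3, the lowest of all 10, and the log2 fold change was -0.19 (SE 0.08, limma adjusted p = 0.137). Without GFP 3, the library with the choroid plexus markers, the log2 fold change was -0.27 and the adjusted p was 0.0125. Cdk2, the kinase of cyclin E, averaged 104 ± 15.0 normalized counts in the Sox11 group and 109 ± 33.6 in the GFP group. Ccna2, cyclin A2, and Chek1, a kinase of the replication checkpoint, had log2 fold changes of -0.04 each, with standard errors of 0.14. All 5 genes of this role had negative fold changes, as did 8751 of the 17007 genes tested. Of the 5, 1 passed, beside 9.36% of all genes tested that were lower. The fold changes of Cdk2 (-0.03, SE 0.20), Ccna2 and Chek1 were small beside their standard errors. Their signs changed in some of the other settings tried.

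Of the 14 mitosis genes, Cenpa fell (7.14%, beside 9.36% of all genes tested) and 13 did not pass. The median log2 fold change of the 14 was -0.13, against -0.01 over all tested genes. Their median standard error was 0.19, against 0.09 over all tested genes. Cenpa (ENSMUSG00000029177, chromosome 5, 30666777 to 30674830, plus strand) encodes the histone H3 variant that marks the centromere. It had 92.6, 86.4, 45.6, 68.2 and 86.8 normalized counts in the Sox11 libraries, against 136, 146, 111, 115 and 125 in the GFP libraries. Every Sox11 library was below every GFP library, Sox11 3 lowest, and the means were 75.9 ± 19.3 in the Sox11 group and 127 ± 14.7 in the GFP group (SD, n = 5 each). The log2 fold change was -0.77 (SE 0.19, limma adjusted p = 0.0157), and no left-out library took the adjusted p above 0.0369.

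Other genes of the centromere, the spindle checkpoint and the chromosome passenger complex did not pass. Birc5, survivin of the passenger complex, had 33.3, 30.8, 28.1, 21.9 and 29.6 normalized counts in the Sox11 libraries, against 40.6, 46.1, 30.8, 48.8 and 33.2 in the GFP libraries. Its groups overlapped through GFP 4 and GFP 6, and the log2 fold change was -0.45 (SE 0.18, limma adjusted p = 0.115). Bub1b, a kinase-like protein of the checkpoint, had 170.2, 154, 242, 239.9 and 123 normalized counts in the Sox11 libraries, against 148, 189, 152, 107 and 135 in the GFP libraries. With Sox11 3 and Sox11 6 high and Sox11 7 low, its log2 fold change of 0.32 had an SE of 0.21. Cenpf, a kinetochore protein, Bub1, a checkpoint kinase, and Cdc20, the activator of the anaphase-promoting complex, were at log2 fold changes of -0.23 (SE 0.14), -0.17 (SE 0.26) and -0.09 (SE 0.20).

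The mitotic kinases and cyclins were low, from 4.39 normalized counts per kilobase for Ccnb1 to 31.6 for Aurka in the Sox11 group and from 5.70 for Aurkb to 28.2 for Aurka in the GFP group. None of the 6 passed, with 3 fold changes positive and 3 negative. Cdk1, the kinase that drives mitosis, had 26.1, 26.8, 28.9, 28.0 and 27.5 normalized counts in the Sox11 libraries, against 32.9, 46.1, 33.0, 21.3 and 28.0 in the GFP libraries. Its Sox11 libraries lay close together within the range of the GFP libraries (log2 fold change -0.18, SE 0.20). Ccnb1, cyclin B1, had 17.4, 27.8, 12.2, 18.3 and 16.9 normalized counts in the Sox11 libraries, against 15.5, 34.6, 29.7, 24.4 and 18.7 in the GFP libraries (log2 fold change -0.38, SE 0.27). Both groups spread widely, and 72.3% of the 31-base words of Ccnb1 are its own. The log2 fold changes of cyclin B2 (Ccnb2) and of the kinases Plk1, Aurka and Aurkb were -0.06 (SE 0.22), 0.13 (SE 0.17), 0.13 (SE 0.18) and 0.19 (SE 0.30).

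Mki67, which encodes the Ki-67 protein of cycling cells, had 94.2, 115, 96.6, 99.8 and 130.2 normalized counts in the Sox11 libraries, against 106, 114, 111, 108 and 89.3 in the GFP libraries. The groups overlapped, although Sox11 2 and Sox11 7 were above every GFP library and GFP 6 was below every Sox11 library, with means of 107 ± 15.2 in the Sox11 group and 106 ± 9.64 in the GFP group and a log2 fold change of 0.01 (SE 0.12). Top2a, the topoisomerase that untangles chromosomes, had 125, 99.3, 117, 155 and 165 normalized counts in the Sox11 libraries, against 154, 145, 131, 167 and 156 in the GFP libraries. Sox11 1, 2 and 3 were below every GFP library and Sox11 6 and 7 were within their range, with a log2 fold change of -0.20 (SE 0.14). The same libraries differed in the summed level of the 14 mitosis genes, which was 841, 843, 849, 1008 and 947 normalized counts in Sox11 1, 2, 3, 6 and 7, against 998, 1044, 961, 878 and 893 in GFP 1, 3, 4, 5 and 6. Within the Sox11 group the libraries numbered 6 and 7 were thus the higher ones, and within the GFP group those numbered 5 and 6 were the lower ones. The columns were then divided by number, a division chosen after seeing the data that leaves 5 libraries on each side. The division was not limited to mitosis genes. On the first principal component of all tested genes (43.3% of the variance), columns 1 to 3 were all negative and columns 4 to 7 all positive. Sox11 and GFP libraries were separated on the second component (17.4%). The median log2 fold change of the 33 genes was -0.12 within columns 1 to 3 and 0.09 within columns 4 to 7, so its sign differed between them. Because of that choice the difference is a description and no separate evidence. For Top2a the log2 fold change was -0.40 (SE 0.16) within columns 1 to 3 and 0.09 (SE 0.16) within columns 4 to 7, and for Aurka it was -0.18 (SE 0.20) and 0.55 (SE 0.20).

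Beyond the 33 genes, 53 other replication genes were listed, of which 51 passed the filter. Of these 6 rose and 4 fell, 19.6% called beside 19.0% of all genes tested, with a median log2 fold change of 0.02. The 6 that rose were Clspn, Gins1, Chaf1b, E2f8, Chaf1a and Rfc3. Clspn, claspin of the replication checkpoint (ENSMUSG00000042489, chromosome 4, 126556935 to 126593903), had 220.1, 229, 250.2, 273 and 311 normalized counts in the Sox11 libraries, against 114, 128, 97.9, 116 and 102 in the GFP libraries. The groups were well apart, at a log2 fold change of 1.19 (SE 0.12, limma adjusted p = 9.1e-05).

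Gins1, a GINS subunit like Gins2 (ENSMUSG00000027454, chromosome 2, 150905400 to 150931280), had 71.3, 72.5, 102, 99.8 and 93.1 normalized counts in the Sox11 libraries, against 38.7, 36.9, 47.3, 35.6 and 51.9 in the GFP libraries. It rose by 1.04 on the log2 scale (SE 0.16, limma adjusted p = 0.00141), whereas Gins2 fell by 0.47. The remaining GINS subunits did not pass, with log2 fold changes of -0.27 (SE 0.10) for Gins3 and 0.02 (SE 0.06) for Gins4. Partners of claspin at the fork, Timeless and Tipin, were at log2 fold changes of 0.31 (SE 0.10, limma adjusted p = 0.0531) and 0.10 (SE 0.06). Over the fits that leave out a library, the limma adjusted p of Timeless ran from 0.0288 to 0.120. Cdc45, which joins the hexamer with GINS, was at 0.02 (SE 0.11).

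Both large subunits of chromatin assembly factor 1, which places histones on new DNA, rose. Chaf1b averaged 50.6 ± 11.8 normalized counts in the Sox11 group and 24.4 ± 4.19 in the GFP group (SD, n = 5 each), and its log2 fold change was 1.01 (SE 0.20, limma adjusted p = 0.00468). Chaf1a averaged 370.3 ± 24.7 in the Sox11 group and 274 ± 17.2 in the GFP group, a log2 fold change of 0.43 (SE 0.08, limma adjusted p = 0.00260). For Chaf1a, 52.5% of exonic bases are covered by genes on the opposite strand, and their part in its count was not tested. Rfc3, a subunit of the clamp loader, averaged 309.8 ± 29.1 normalized counts in the Sox11 group and 233 ± 19.8 in the GFP group (log2 fold change 0.41, SE 0.09, limma adjusted p = 0.0106). E2f8, a repressor of the E2F family, averaged 23.2 ± 4.16 in the Sox11 group and 13.8 ± 3.31 in the GFP group, with a log2 fold change of 0.73 (SE 0.23, limma adjusted p = 0.0425). Its adjusted p exceeded the threshold in 9 of the 10 fits that leave out a library, up to 0.108.

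**Figure D3:**
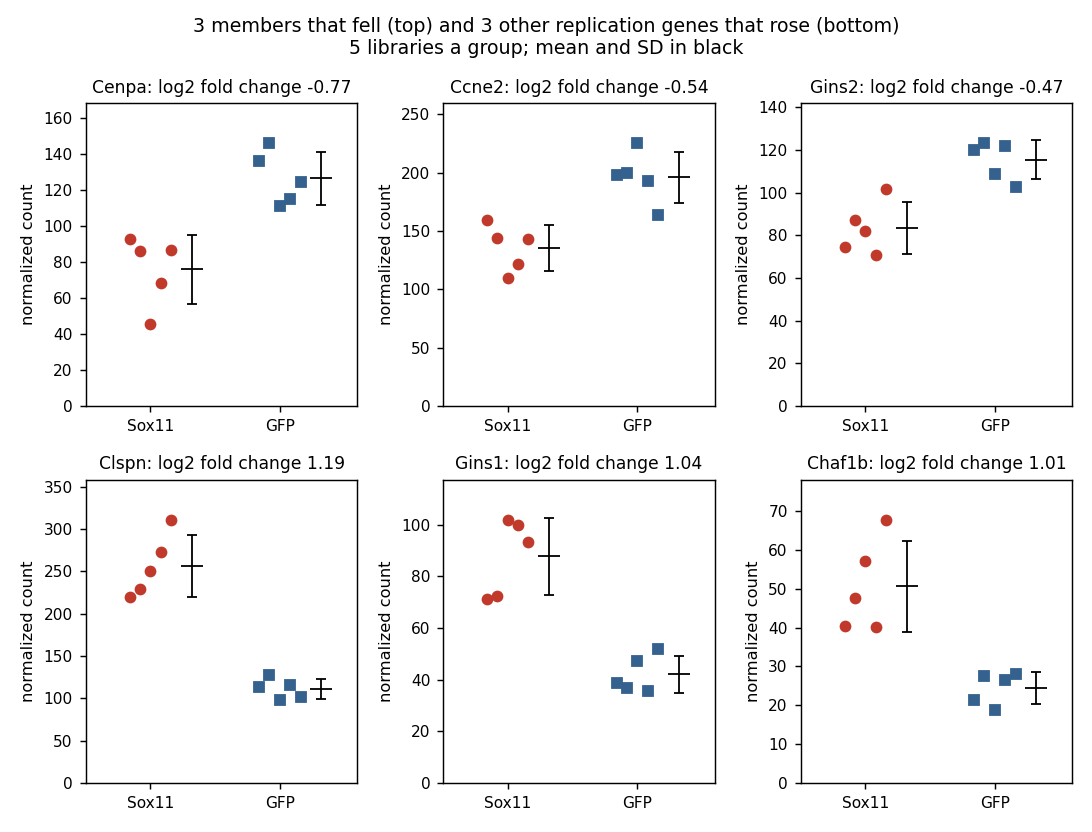
Normalized counts (linear axes from 0, 1 panel per gene) in each library of Cenpa, Ccne2 and Gins2, which fell, in the top row and of Clspn, Gins1 and Chaf1b, which rose, in the bottom row, with Sox11 libraries as circles left of GFP libraries as squares and the mean and SD of each group in black. No gene's groups overlap, and the gap is narrowest for Gins2, with 102 in the highest Sox11 library and 103 in the lowest GFP library.

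The 4 that fell were E2f1, Wdhd1, Dut and Slbp. E2f1, an activator of the E2F family, had 222, 249, 230.4, 170.5 and 192 normalized counts in the Sox11 libraries, against 278, 286, 302, 287 and 296 in the GFP libraries. All Sox11 libraries were below all GFP libraries, with a log2 fold change of -0.46 (SE 0.11, limma adjusted p = 0.0114). Dut, which removes dUTP, averaged 1105 ± 73.6 normalized counts in the Sox11 group and 1353 ± 59.7 in the GFP group (log2 fold change -0.29, SE 0.06, limma adjusted p = 0.00408). Slbp, the histone stem-loop binding protein, averaged 725 ± 31.9 in the Sox11 group and 857 ± 38.8 in the GFP group (log2 fold change -0.24, SE 0.05, limma adjusted p = 0.00916). Wdhd1, a factor that links helicase and polymerase, fell by 0.36 on the log2 scale (SE 0.11, limma adjusted p = 0.0394), with overlapping groups and an adjusted p over the threshold in 7 of the 10 fits that leave out a library. Orc1 and Tk1 were under the filter and were not tested.

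Of 65 other mitosis genes 63 passed the filter, 1 rose and 3 fell, 6.35% called beside 19.0% of all genes tested, with a median log2 fold change of 0.01. Their median standard error was 0.18, against 0.09 over all tested genes, so the shares called stand at unlike precision. The median absolute log2 fold change was 0.16 for these genes and 0.15 over all tested genes. Ncapd2, a subunit of condensin I, had 1614, 1551, 1666, 1734 and 1728 normalized counts in the Sox11 libraries, against 1194, 1065, 1088, 1251 and 1109 in the GFP libraries. It rose by 0.54 on the log2 scale (SE 0.06, limma adjusted p = 0.000124). Smc4, an ATPase subunit of condensin, averaged 534 ± 77.5 normalized counts in the Sox11 group and 785 ± 76.0 in the GFP group, and fell by 0.56 on the log2 scale (SE 0.11, limma adjusted p = 0.00405). The other 4 condensin genes listed did not pass, at log2 fold changes of -0.29 (SE 0.10, limma adjusted p = 0.0630) for Smc2, -0.22 (SE 0.23) for Ncapg, 0.03 (SE 0.08) for Ncapg2 and 0.11 (SE 0.16) for Ncaph. Kif11, the spindle motor Eg5, fell by 0.46 (SE 0.11, limma adjusted p = 0.0162) and Pttg1, securin, by 0.36 (SE 0.07, limma adjusted p = 0.00512) on the log2 scale. Foxm1 and Mybl2, transcription factors of late cell cycle genes, did not pass, at log2 fold changes of 0.15 (SE 0.13) and 0.05 (SE 0.21). Cdc25c and Ska1 were under the filter.

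**Figure D4:**
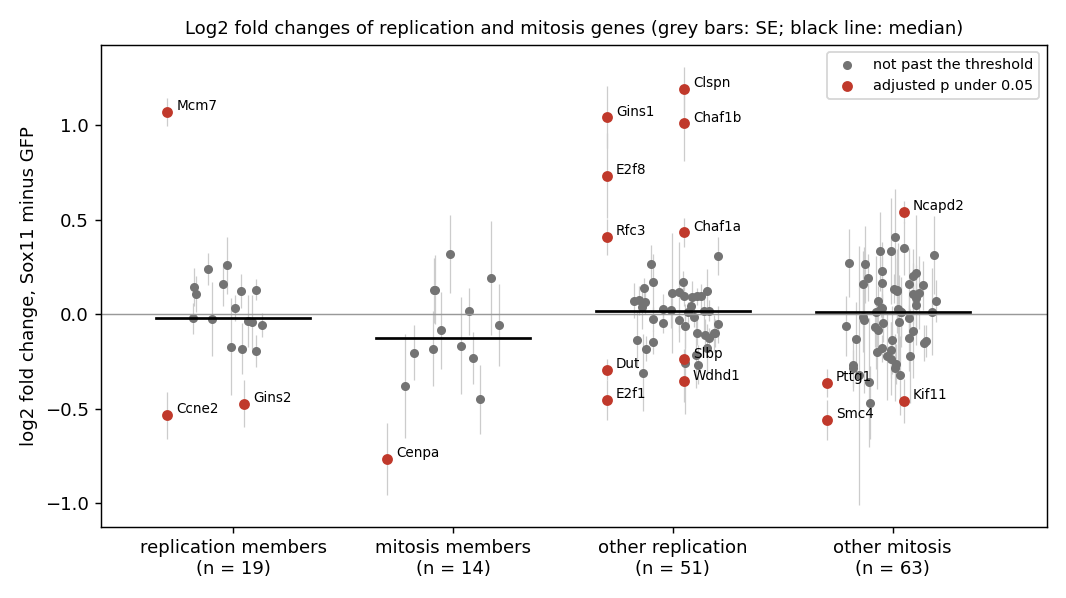
Log2 fold change, Sox11 minus GFP, of each tested replication and mitosis gene of the 33 and of the other genes of each kind, with SE as thin bars, the median of each list as a black line and genes past the threshold in red and named. The medians lie at -0.02, -0.13, 0.02 and 0.01, and Mcm7, Clspn, Gins1 and Chaf1b stand above 1.

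Mcm7 lies in a dense part of chromosome 5, and its neighbours were read for their own values after those of Mcm7 were known. Ap4m1, which encodes a subunit of an adaptor complex of vesicle transport, starts at 138172002 on the opposite strand, 0.42 kb inside the GENCODE gene model of Mcm7. That position also lies within the printed Mcm7 window, upstream of the RefSeq start on which the window is built. The 2 sources thus place the Mcm7 start differently, and distances here are from the GENCODE start. It averaged 1177 ± 73.0 normalized counts in the Sox11 group and 913 ± 21.4 in the GFP group, without overlap, a log2 fold change of 0.36 (SE 0.05, limma adjusted p = 0.000766). Zfp113, a zinc finger gene on the strand of Mcm7 that starts 16.7 kb downstream of its start, averaged 819 ± 84.2 in the Sox11 group and 604 ± 31.2 in the GFP group (log2 fold change 0.43, SE 0.07, limma adjusted p = 0.00224). Cops6 and Taf6 did not pass, at log2 fold changes of -0.09 (SE 0.04) and 0.01 (SE 0.05). Other genes cover 8.70% of the exonic bases of Mcm7 on the opposite strand and 3.89% on its own strand, and their part in its count was not tested.

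**Figure D5:**
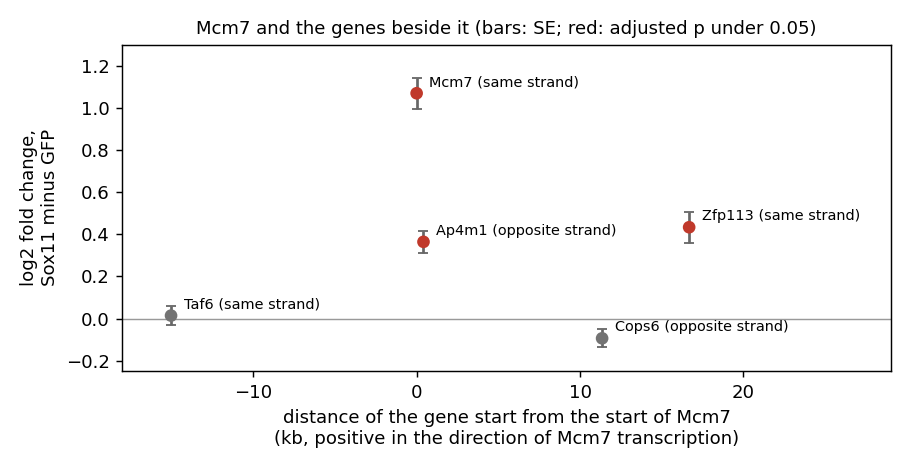
Log2 fold change, Sox11 minus GFP, of Mcm7 and the tested genes beside it, with SE as bars and genes past the threshold in red. The horizontal axis gives the distance in kb of each gene's start from the GENCODE start of Mcm7. Mcm7 stands at 1.07, Zfp113 and Ap4m1 at 0.43 and 0.36, and Cops6 and Taf6 near 0.

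Mcm7 is also the host gene of 3 microRNAs, whose hairpins lie in intron 13 of a coding transcript and, for Mir93 and Mir25, also in an exon of a retained-intron transcript. Their mature forms are shown because they share the gene that rose, with the seed (bases 2 to 8) in capitals, from RefSeq on GRCm38.p6. They lie on the minus strand at chr5:138165787-138165807, chr5:138165574-138165596 and chr5:138165332-138165353.
mmu-miR-106b-5p: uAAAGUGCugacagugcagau
mmu-miR-93-5p: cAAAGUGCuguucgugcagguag
mmu-miR-25-3p: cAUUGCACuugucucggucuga
The seed of miR-106b-5p is the same as that of miR-93-5p, and that of miR-25-3p differs. Poly(A)-selected libraries do not measure mature microRNAs. In the table Mir25 and Mir93 were at 0 in all libraries, and Mir106b had 1 read each in Sox11 3 and GFP 6, so the levels of these microRNAs were not analysed here.

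Markers of cell types that divide in this tissue were read beside the genes above. None of 13 markers listed for neural progenitors was called, beside 19.0% of all genes tested. Their log2 fold changes lay between -0.33 and 0.74, with a median standard error of 0.16, against 0.09 over all tested genes. Their summed level, led by Hopx, was 9362 to 10179 normalized counts in Sox11 libraries and 8863 to 9753 in GFP libraries. These markers are not limited to dividing cells, so the sum does not give the level of dividing progenitors. Oligodendrocyte precursor markers summed to 13418 to 16723 in Sox11 libraries and 15013 to 15965 in GFP libraries, with 0 of 9 called. Microglia markers summed to 17138 to 21302 in Sox11 libraries and 18113 to 22738 in GFP libraries, with 0 of 9 called. None of these marker lists held a gene at 0 in every library.

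Leukocyte markers summed to 272 to 508 normalized counts in Sox11 libraries and 145 to 394 in GFP libraries. All 7 that passed the filter had positive log2 fold changes, with a median of 0.76, and 2 of them rose (28.6%, beside 9.65% of all genes tested), the chemokine gene Ccl5 (27.2 ± 16.9 in the Sox11 group and 5.25 ± 1.14 in the GFP group, limma adjusted p = 0.00408) and the integrin gene Itgax (46.9 ± 17.3 in the Sox11 group and 16.9 ± 6.97 in the GFP group, limma adjusted p = 0.00733). Endothelial markers summed to 9267 to 13380 in Sox11 libraries and 7963 to 15986 in GFP libraries, with 0 of 8 called, and pericyte and fibroblast markers had 0 of 9 called. Beside these counts stand 19.0% of all genes tested. The median standard errors of these 2 lists were 0.20 and 0.41, against 0.09 over all tested genes. Of 11 markers of mature granule neurons 2 rose (18.2%, beside 9.65% of all genes tested) and 4 fell (36.4%, beside 9.36%). Their log2 fold changes were 0.43 (SE 0.13) for Rfx3, 0.29 (SE 0.09) for Lct, -0.41 (SE 0.12) for C1ql2, -0.51 (SE 0.10) for Gabrd, -0.39 (SE 0.07) for Plk5 and -0.79 (SE 0.19) for Pdzd2. Groups overlapped for Rfx3, Lct, C1ql2 and Pdzd2. The limma adjusted p of Rfx3 (0.0434), Lct (0.0360) and C1ql2 (0.0389) exceeded the threshold in 6, 6 and 7 of the 10 fits that leave out a library. Those of Gabrd, Plk5 and Pdzd2 exceeded it in 0. The part of any of these cells in the values of the 33 genes was not tested.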

How the data were processed

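RNA from the dentate gyrus of 10 mice was sequenced. Per the labels, the file deposited by the authors holds a signal, the normalized count, in which the reads of a library are divided by 1 factor. Dividing each library by what 1 read is worth gave whole reads for 100% of values within 0.01 reads. The submitters' processing notes name the build GRCm38, the aligner STAR 2.5.2a, the counter featureCounts 1.5.1 of Subread, and also cutadapt 1.9.1, bcl2fastq 1.8.4, R 3.3.1 and DESeq2 1.12.3. The annotation release, strand setting and handling of reads mapping to several places were not given in the sources used here. Numbers in the table's columns differ from those in the sample titles, and only the group of a column was used.

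GENCODE M21 (GRCm38) gave symbols and positions for 48144 of 48526 identifiers. Genes averaging 10 or more normalized counts were tested with limma 3.58.1 (trend and robust, R 4.3.3) on log2(normalized count + 1), a scale that understates changes of low genes, with Benjamini-Hochberg adjustment and a threshold of 0.05. A two-sided exact permutation test was used for Sox11. Exonic length, overlap with other genes and the share of 31-base words were computed from the annotation.

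The 33 genes, the other lists and the tests were chosen with earlier results of these data known. Values in each library are given for the genes of the 33 past the threshold and the 2 of lowest p in each role, and for all genes of the other lists past the threshold a value is given. Mcm3, Lig1, Bub1b, Gins3, Gins4, Cdc45, Timeless, Tipin, Foxm1, Mybl2, Smc2, Ncapg, Ncapg2, Ncaph and the neighbours of Mcm7, Gins2 and Ccne2 were named after their values were seen. On simulated counts for the same 17007 genes the test called 8.33% of genes changed 1.2-fold, 62% changed 1.5-fold, 78.7% changed 2-fold and 91.7% changed 4-fold, and 10 of 16655 unchanged genes. Other settings tried were pseudocounts of 0.5 and 8, a filter at a mean of 50 or none, sample weights, quantile normalization, TMM scaling, limma without trend and robust, edgeR 4.0.16 and DESeq2 1.42.0 on recovered reads, a threshold of 0.1 and each library left out. A division by column number was added after seeing the data. Tables and figures were made with pandas 2.3.3, matplotlib 3.10.9 and numpy 2.4.6 in Python 3.11.15.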

Additional observations from a re-analysis of the deposited data

Results flagged for a closer look

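In 7 of 68 groups of 5 libraries examined, over the 33 genes and Sox11, the highest or lowest library lay far from the others, with a gap of more than 0.71 of the group's range, which chance gives in about 1 in 20 groups. Mcm2 had 379 normalized counts in Sox11 3, against 295 to 305 in the other Sox11 libraries. Lig1 had 472 normalized counts in Sox11 6, against 330.2 to 353 in the others of its group. Sox11 itself had 20434 normalized counts in Sox11 3, against 9803 to 11591 in the others, and 1634 in GFP 5, against 1364 to 1399 in the other GFP libraries. Mcm6 had 2547 normalized counts in GFP 5, against 2073 to 2199 in the others of its group. Mcm7 had 496 normalized counts in GFP 3, against 552 to 564 in the other GFP libraries, and it remained past the threshold without that library. Mki67 had 89.3 normalized counts in GFP 6, against 106 to 114 in the others.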

How the results depend on the processing

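Mcm7 was past the threshold in all 24 alternative settings, and of the 29 genes that did not pass, 27 did not pass in any of the 21 planned ones. Mcm3 passed with limma without trend and robust and at a threshold of 0.1, each giving 2 higher genes of the 33, and Ccne1 passed with sample weights and without GFP 3. At a threshold of 0.1, 10 other replication genes rose. With sample weights 5 other mitosis genes fell, and without GFP 3, 4 fell. Leaving out each library in turn gave 1280 to 1569 genes higher and 1175 to 1699 lower, with 1 of the 33 higher and 2 to 4 lower. It gave 5 to 7 other replication genes higher and 3 to 5 lower, 1 other mitosis gene higher and 3 to 4 lower, and a log2 difference for Sox11 of 2.89 to 3.15. Gins2 was the gene lost, without Sox11 1.

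A division of the columns by number, 1 to 3 and 4 to 7, was chosen after seeing the data. As a covariate it gave 2067 genes higher and 1981 lower, against 1642 and 1592 without it. With it, 2 of the 33 genes were higher (Mcm7 and Pcna) and 5 other mitosis genes were lower. Within columns 1 to 3 alone (5 libraries), 589 genes rose and 424 fell, with 0 of the 33 lower, 1 other replication gene higher and 0 lower, and 0 other mitosis genes lower. Within columns 4 to 7 alone (5 libraries), 1237 genes rose and 1346 fell, 2 of the 33 rose (Mcm7, and Mcm6 at 0.33 on the log2 scale), 0 fell, and 2 other replication genes rose. Log2 fold changes in columns 1 to 3 and in columns 4 to 7 were -0.97 and -0.60 for Cenpa, -0.54 and -0.54 for Ccne2, and -0.58 and -0.39 for Gins2. The cause was not tested. No paired analysis was possible because the column numbers do not match the replicate numbers in the labels. Depth limits the least abundant mitosis genes, where counting error alone is over 20% for Ccnb1, Bub1 and Aurkb.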
